A study of Mus musculus with 10 samples.

Results

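Notch signalling genes were measured in the C3H10 T1/2 line, mouse embryonic mesenchymal cells that can be driven towards bone, cartilage or fat. The genes were 3 receptors (Notch1, Notch2 and Notch3), 3 ligands (Jag1, Jag2 and Dll1) and 4 transcriptional targets (Hes1, Hey1, Hey2 and Heyl). These 10 were chosen by name from the 46095 gene symbols of the RNA-seq count table, together with the open-chromatin peaks lying within 5 kb of their gene bodies. RNA was measured in 3 libraries of static control cells and 3 of cells under cyclic mechanical strain, a sinusoidal stretch of 0.5 Hz and 10% elongation given for 8 h a day over 3 days on flexible collagen-coated plates after 48 h of culture. Open chromatin was measured by ATAC-seq, which inserts sequencing adapters into accessible DNA, in 2 GFP control libraries and 2 libraries in which Piezo1, a stretch-gated cation channel, had been knocked out by CRISPR/Cas9. The labels give the strain of the RNA-seq cells as C57BL/6 although the line is known as a C3H derivative. They do not state whether the knockout is 1 clone or whether replicates are separate cultures, and they mention no stretch for the ATAC-seq cells. The spread that p-values rest on may therefore be technical. Values of a group are given in the order of its replicates 1, 2 and 3.

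Notch receptors are membrane proteins that bind Jagged or Delta-like ligands on a neighbouring cell, and the pull of the bound ligand exposes the receptor to cutting, first by an ADAM protease and then by gamma-secretase. The freed intracellular part enters the nucleus and joins the DNA-binding protein RBPJ and a Mastermind coactivator to switch on genes of the Hes and Hey family, which encode repressors of the basic helix-loop-helix class. In skeletal precursors the pathway is known for holding back osteoblast differentiation.

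Library totals lay between 36150738 and 41024689 counts. Replicates differed by more than sampling noise in every pair (chi-square per degree of freedom of 7.25 or more), and static replicate 3 and strain replicate 1 stood apart from the other libraries of their groups (26.2 or more against 12.0 or less between the rest). Mesenchymal markers such as Col1a1 and Pdgfrb were abundant, and Thy1 was near 0. The endothelial markers Cdh5 and Emcn, the leukocyte marker Ptprc and the epithelial marker Epcam had no count in any library. Other markers of the same lists were detected at low levels. Mean static values were 2.93 CPM for Vwf (endothelial), 2.52 for Cd68 and 7.01 for Cd14 (leukocyte), and 7.57 for Cdh1 and 1.48 for Krt14 (epithelial). Peak lists held 13610 to 26652 peaks. They contain no reads of the Piezo1 transcript and cannot show its loss.

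Of the 10 genes, 8 passed the filter on low counts and were tested with edgeR's quasi-likelihood test among 15335 genes, with a call at a Benjamini-Hochberg adjusted p under 0.05. Of these, 0 were called higher and 4 lower under strain (Notch3, Jag2, Hes1 and Hey2), the same numbers as at an unadjusted p under 0.05 and as DESeq2 gave, with a median log2 fold change of −0.56 against 0.0049 over all tested genes. Over all genes tested, 5.94% were called higher and 7.39% lower. At an unadjusted p under 0.05, 2222 of them were higher and 2322 lower, and DESeq2 called 1320 higher and 1540 lower. The 4 called genes were also those whose groups did not overlap, against 35.3% of all tested genes in either direction. The low-count genes Jag2 and Hey2 passed the filter through the static libraries only. With their strain libraries under the filter, they were tested only because their static levels were higher. The count of 4 and the median therefore support nothing by themselves. Hey1 and Heyl were not tested. With the filter removed, Notch2 was called higher as well. With static replicate 3 and strain replicate 1 both left out, an alternative chosen after seeing the data, 1 gene was called higher (Notch2) and 5 lower (Jag1 and the same 4). In such bulk samples, fewer cells of a type and less RNA per cell cannot be told apart.

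**Figure D1:**
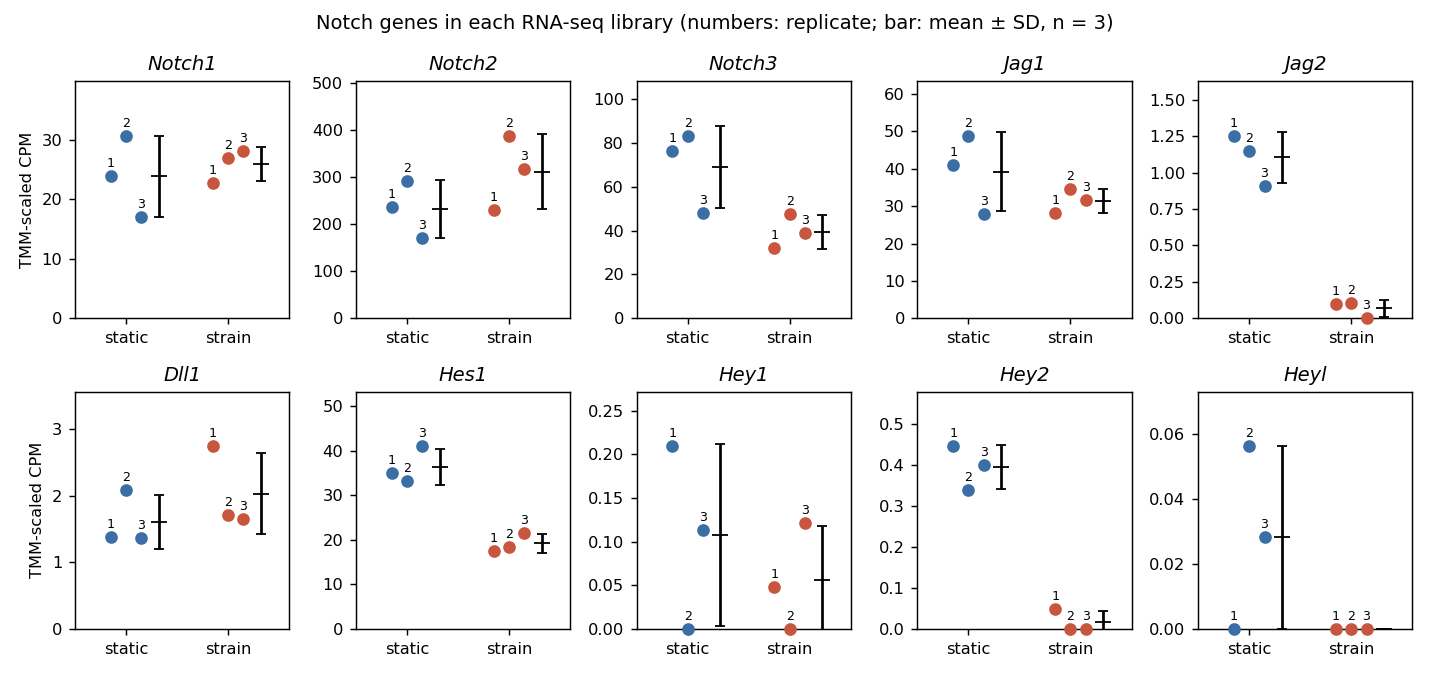
Level of each gene in CPM (read counts scaled to a common library size with TMM factors; linear vertical axes from 0 that differ between panels) in the 3 static and 3 strain libraries, numbered by replicate, with mean ± SD beside them. Jag2, Hes1 and Hey2 separate by group with a wide gap, Notch3 separates narrowly at 48.0 against 47.6 CPM, and the other genes overlap.

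Among the receptors, Notch3, the paralog known from vascular mural cells and some mesenchymal cells, fell under strain. Its level was 76.3, 83.2 and 48.0 CPM in static cells and 32.2, 47.6 and 38.7 CPM after strain. The groups did not overlap, but static replicate 3 and strain replicate 2 nearly met, and 17.9% of all tested genes had every strain value below every static one. The means were 69.2 ± 18.7 and 39.5 ± 7.74 CPM (SD, n = 3), a log2 fold change of −0.81 (SE 0.20; edgeR adjusted p = 0.0265). The call was lost without static replicate 1 (adjusted p = 0.0885), strain replicate 1 (0.0847) or strain replicate 3 (0.0907), while the log2 fold change stayed between −1.01 and −0.66 with any single library left out.

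Notch2 and Notch1, the more broadly expressed receptors, were not called. Notch2 was at 236, 293 and 170 CPM in static cells and 229, 388 and 317 CPM after strain (log2 fold change 0.42, SE 0.21; edgeR adjusted p = 0.216). Strain replicate 1 lay within the static range, and the other strain libraries lay above it. The Notch2 log2 fold change was 0.24 without static replicate 3 (edgeR adjusted p = 0.485) and 0.23 without strain replicate 2 (0.579). Notch1 was at 23.8, 30.7 and 17.0 CPM in static and 22.7, 27.0 and 28.1 CPM in strain libraries, with overlapping groups (log2 fold change 0.12, SE 0.19; edgeR adjusted p = 0.709). Its log2 fold change was −0.070 without static replicate 3.

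Static replicate 3 had the lowest static value of all 3 receptors and all 3 ligands. Against the mean of static replicates 1 and 2 it was lower by a log2 difference of −0.68 for Notch1, −0.64 for Notch2, −0.73 for Notch3 and −0.69 for Jag1, each beyond the 10th percentile of all tested genes (−0.51), and of −0.40 for Jag2 and −0.34 for Dll1, which were not. Its Hes1 level was the highest of the static libraries (0.27).

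Static replicate 3 was low for all 3 receptors in CPM, which is already scaled for sequencing depth. Receptor counts were therefore also compared as ratios within each library, where a scale factor common to both genes cancels. These ratios were chosen after the values were seen. The Notch3 to Notch2 ratio of raw counts was 0.323, 0.284 and 0.283 in static cells and 0.140, 0.123 and 0.122 after strain. Static replicate 3, low for each receptor alone, sat with its group here. The mean ratio was 0.297 ± 0.0229 in static and 0.128 ± 0.0104 in strain libraries (SD, n = 3), so the strain value was 0.433 of the static one. That value joins 2 changes and is not a corrected fall of Notch3. By mean CPM, strain over static was 0.571 for Notch3 and 1.34 for Notch2, which was not called. The Notch3 to Notch1 ratio went from 2.91 ± 0.257 to 1.52 ± 0.214 in the same way, again without overlap. The Notch1 to Notch2 ratio was 0.102 ± 0.00244 in static and 0.0858 ± 0.0150 in strain libraries, with strain replicate 1 (0.0991) just under the static values. Relative to either other receptor, Notch3 had fewer counts in every strain library than in any static one. An exact two-sided permutation test gave p = 0.10 for each of the 4 ratios computed (0.10 after Benjamini-Hochberg adjustment), the smallest p that 3 libraries against 3 allow. Any ratio whose groups do not overlap gets this p, so it adds no support to ratios chosen after the values were seen.

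**Figure D2:**
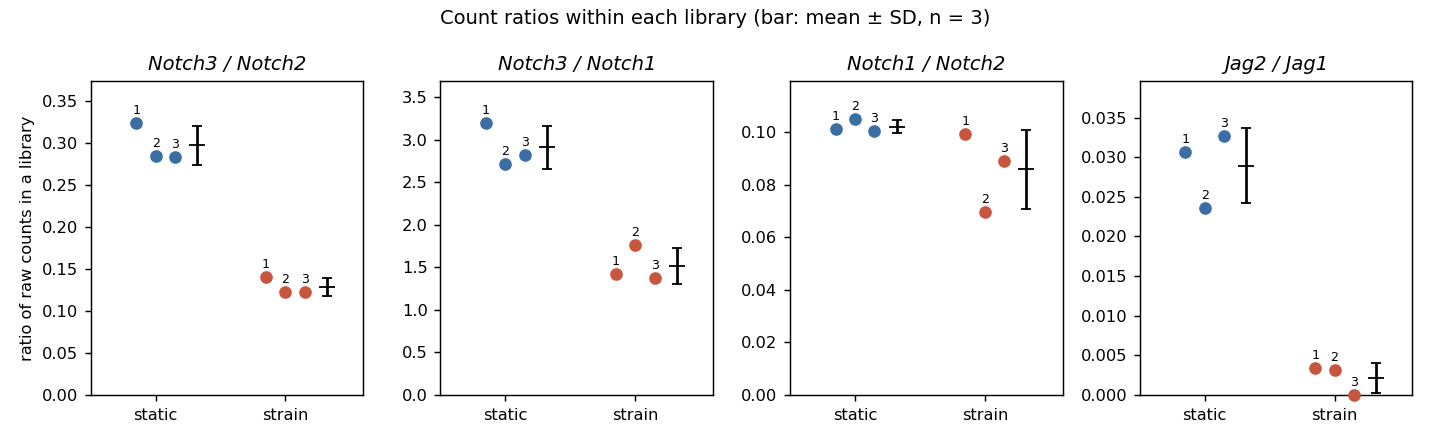
Ratio of raw counts of gene pairs within each library (vertical axes linear from 0), by group, numbered by replicate, with mean ± SD (n = 3). Notch3 to Notch2 lies between 0.283 and 0.323 in static and between 0.122 and 0.140 in strain libraries, and Jag2 to Jag1 drops to near 0.

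Among the ligands, Jag2 had the larger change. It was scarce in static cells, at 1.25, 1.15 and 0.910 CPM, and was at 0.0961, 0.107 and 0 CPM after strain, from 121 summed counts in static and 8 in strain libraries. All 3 strain libraries lay far below all 3 static ones. Jag2 passed the filter through the static libraries only. Its strain libraries lay under the filter, so it was tested only because its static levels were higher. Its adjusted p below therefore gives no support by itself. The ratio of the sums, scaled for depth, was 0.0599, with a 95% exact interval of 0.0253 to 0.122 that covers counting error alone, and the fitted log2 fold change was −3.99 (SE 0.62; edgeR adjusted p = 0.00247).

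Jag1, the other Jagged ligand and one of the known activators of Notch in skeletal precursors, was at 41.0, 48.8 and 27.9 CPM in static and 28.2, 34.7 and 31.5 CPM in strain libraries. Static replicate 3 lay below every strain library, and Jag1 was not called (log2 fold change −0.32, SE 0.18; edgeR adjusted p = 0.264). It was called without static replicate 3 (−0.51, adjusted p = 0.0273). The Delta-like ligand gene Dll1 was at 1.38, 2.08 and 1.37 CPM in static and 2.74, 1.71 and 1.65 CPM in strain libraries (log2 fold change 0.34, SE 0.30; edgeR adjusted p = 0.491). Its highest value was in strain replicate 1 and the rest overlapped. The Jag2 to Jag1 count ratio was 0.0289 ± 0.00475 in static and 0.00216 ± 0.00188 in strain libraries (SD, n = 3).

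Among the targets, Hes1, which encodes a repressor that also shuts off its own gene, fell from 35.0, 33.1 and 41.0 CPM in static cells to 17.6, 18.4 and 21.6 CPM after strain. The groups were well apart. The means were 36.4 ± 4.10 and 19.2 ± 2.14 CPM (SD, n = 3), a log2 fold change of −0.92 (SE 0.13; edgeR adjusted p = 0.00142). With any 1 library left out, the Hes1 value stayed between −1.02 and −0.83 and was called each time.

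Hey2, a target best known from arterial and cardiac cells, was close to the limit of detection even in static cells, with 17, 12 and 14 counts (0.444, 0.337 and 0.398 CPM). The strain libraries held 2, 0 and 0 counts (0.0480, 0 and 0 CPM), below all static libraries. Like Jag2, Hey2 passed the filter through the static libraries only, so its adjusted p below gives no support by itself. The depth-scaled ratio of summed counts was 0.0421, with an interval of the same kind of 0.00495 to 0.162 (fitted log2 fold change −4.32, SE 0.83; edgeR adjusted p = 0.00725). Hey1 had 8, 0 and 4 counts in static and 2, 0 and 5 in strain libraries, a ratio of 0.529 with an interval of 0.176 to 1.46, so no difference was detectable at this depth. Heyl had 3 counts in the static and 0 in the strain libraries together, at or under the limit that a count of 0 allows (3 counts, or 0.0721 to 0.0853 CPM in 1 library).

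**Figure D3:**
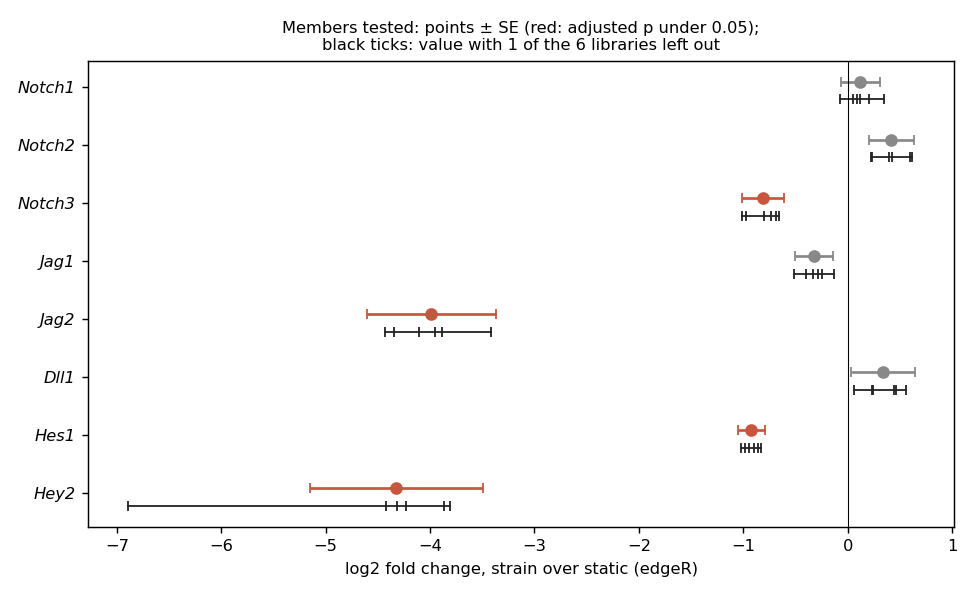
Fitted log2 fold change of strain over static (horizontal axis) for the 8 tested genes, as a point with its SE, red where the adjusted p was under 0.05, with black ticks for the value when 1 of the 6 libraries is left out. Hes1 has the tightest ticks (−1.02 to −0.83), those of Notch1 cross 0, and those of Hey2 reach −6.90 where strain replicate 1, the library with its 2 strain counts, is left out.

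The rest of the pathway was read from a list of 66 other genes, of which 54 were tested, 1 rose and 2 fell, or 5.56% called against 13.3% of all tested genes. Their median log2 fold change was 0.023. Hes6, a relative of Hes1 that is not a standard Notch target and can oppose Hes1, fell from 37.2, 32.1 and 49.4 CPM to 22.4, 18.3 and 20.8 CPM (log2 fold change −0.95, SE 0.16; edgeR adjusted p = 0.00388). Dtx3, of the Deltex family of ubiquitin ligases, was at 167, 155 and 174 CPM in static cells and fell to 124, 117 and 119 CPM after strain (log2 fold change −0.46, SE 0.09; edgeR adjusted p = 0.00921). Adam17, a membrane-shedding protease that can cut Notch, was at 85.4, 92.9 and 79.1 CPM in static cells and rose to 107, 124 and 117 CPM after strain (log2 fold change 0.44, SE 0.10; edgeR adjusted p = 0.0219). The static and strain libraries did not overlap for any of these 3 genes, which also held for 35.3% of all tested genes. Of the 54 tested genes of the list, 11 lay above and 9 below static without overlap. The Dtx3 call was lost without static replicate 1 (adjusted p = 0.0570) or strain replicate 3 (0.0508). That of Adam17 was lost without static replicate 1 (0.0964), strain replicate 2 (0.0988) or strain replicate 3 (0.0889). The set of called genes depended on the setting. With library size alone as scaling 7 rose and 2 fell, against 1169 and 935 of all 15335 tested genes. With DESeq2 6 rose and 4 fell, against 1320 and 1540 of all 15335. Without static replicate 1 0 rose and 1 fell, against 369 and 610 of all 15638 genes tested then.

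By step of the pathway, edgeR called 1 of 10 tested cleavage genes, 1 of 11 ubiquitination and trafficking genes and 1 of 2 tested Hes-family or feedback genes. At an unadjusted p under 0.05, 4 cleavage genes were higher and 1 lower, and 2 ubiquitination and trafficking genes were higher and 1 lower. At that threshold 9 of the 54 tested genes of the list were higher and 8 lower, against 2222 and 2322 of all 15335 tested genes. The counts by step are therefore not read as changes of a step. DESeq2 called the protease genes Adam10, Adam17 and Furin higher in the cleavage group, and Neurl1a higher and Dtx3 lower in the trafficking group. Of the 16 genes of the nuclear complex, edgeR called 0, with 3 higher and 1 lower at an unadjusted p under 0.05. DESeq2 called the histone acetyltransferase genes Ep300 and Crebbp higher and the corepressor gene Tle2 lower among them. Of the 10 genes known as targets in some tissues, edgeR again called 0, with 3 lower at an unadjusted p under 0.05, and DESeq2 called Tagln lower. The 4 sugar transferase genes gave 0 calls by either tool, with 1 (Lfng) lower at an unadjusted p under 0.05. Rbpj, the DNA-binding core of the pathway, was at 359 ± 48.4 CPM in static and 361 ± 26.7 CPM in strain libraries (SD, n = 3; log2 fold change 0.0081, SE 0.12; edgeR adjusted p = 0.974). The receptor gene Notch4 and the target Hes5 had no count in any library. Dll4, the endothelial Delta-like ligand, had 5 summed counts in each group. Nrarp, a feedback inhibitor that Notch induces, had 6, 1 and 8 counts in static and 2, 0 and 0 in strain libraries, a depth-scaled ratio of 0.121 whose counting interval runs from 0.0134 to 0.520. It did not pass the filter, and static replicate 2, with 1 count, lay within the strain range.

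**Figure D4:**
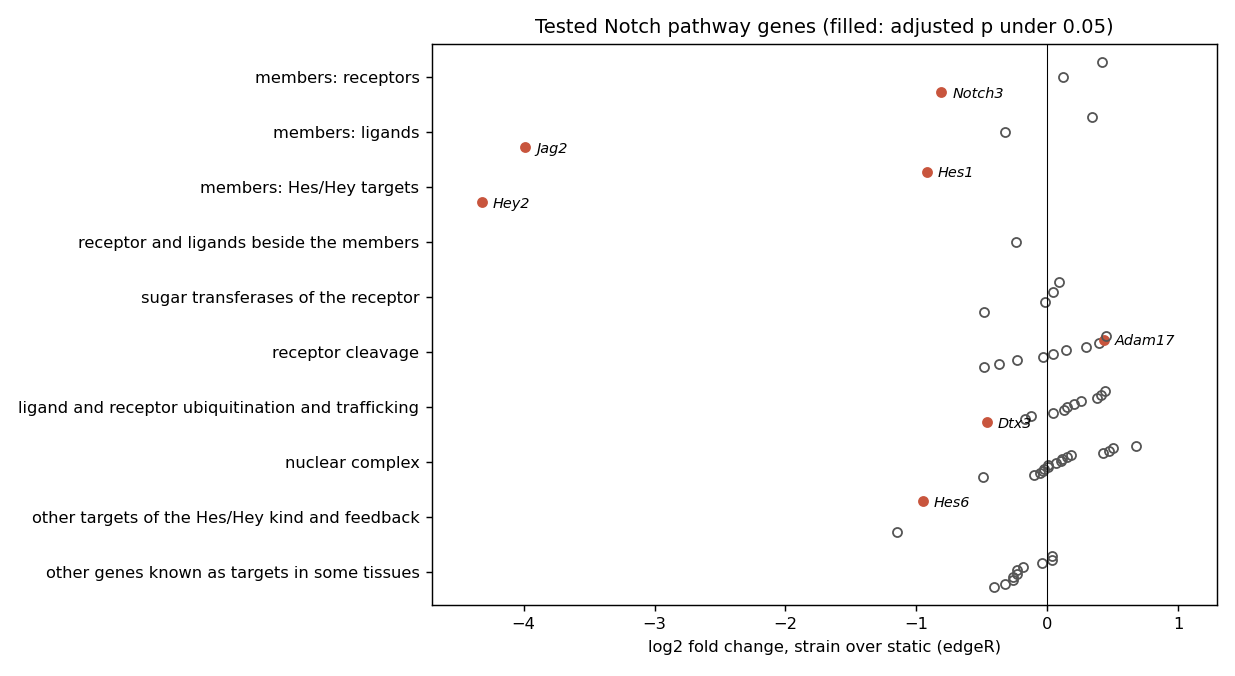
Log2 fold change of strain over static (horizontal axis) for the tested genes of the pathway, 1 row per functional group, filled and named where the adjusted p was under 0.05. Jag2 (−3.99) and Hey2 (−4.32) lie far to the left, and the genes of the nuclear complex lie between −0.49 and 0.68.

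Markers of other cell types that use Notch were set beside these changes. The 7 endothelial markers summed to 3.07 to 4.04 CPM in static and 3.96 to 6.40 CPM in strain libraries. None was called, the nearest being Kdr (log2 fold change 1.41, edgeR adjusted p = 0.160). The other tested ones were Vwf (log2 fold change 0.42) and Tek (−0.34). The 5 mural markers summed to 79.5 to 97.4 and 78.1 to 110 CPM. Of these Mcam fell (log2 fold change −0.79; edgeR adjusted p = 0.00615), Cspg4 was not called (log2 fold change 0.17), and Rgs5, Abcc9 and Kcnj8 were too low to be tested. The 6 epithelial markers summed to 8.45 to 9.75 and 3.00 to 4.53 CPM. Of the 2 tested, Cdh1 fell (log2 fold change −1.91, edgeR adjusted p = 0.00211) and Krt14 was not called (log2 fold change 0.31). The 5 leukocyte markers summed to 8.96 to 11.8 and 19.6 to 23.1 CPM, with Cd14 higher (log2 fold change 1.34, edgeR adjusted p = 0.000376). Cd68 (log2 fold change 0.50) and Csf1r (−0.22) were not called. Of the 10 mesenchymal markers 9 were tested, of which 5 fell and 0 rose, against 7.39% and 5.94% of all tested genes. Prrx1 (log2 fold change 0.19), Fn1 (0.18), Pdgfra (−0.032) and Pdgfrb (−0.037) were not called. The part of any of these in the Notch gene values was not tested.

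Profiles across the 6 libraries were compared for the 4 called genes with those of at least 10230 other genes (mean log2 CPM of 2 or more). Nearest to Hes1 were Egln3, Gpi1 and Pgm2 (Pearson r of log2 CPM 0.995 each), with log2 fold changes of −0.98, −0.79 and −0.56. The nearest to Notch3 were Fgd1, Gramd4 and Nuak1 (r of 0.995, 0.989 and 0.989), whose log2 fold changes were −0.13, −0.19 and −0.35. Jag2 was closest to Tef, Clmn and Fam161a (0.999, 0.999 and 0.993), with log2 fold changes of −0.56, −1.44 and −0.69. Hey2 was closest to Per1, Pak3 and Stk39 (0.999, 0.998 and 0.998), with log2 fold changes of −0.62, −0.77 and −0.72. Jag2 and Hey2 themselves changed by −3.99 and −4.32 from low counts, and r does not compare the size of changes. All these correlations are descriptions over 6 points that share the 2 conditions.

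In the ATAC-seq lists, peaks of the 4 libraries merged into 29265 regions, of which 26 lay within 5 kb of the Notch genes (mm10). Of the 26, 6 were present in all 4 libraries (23.1%, against 26.4% of all regions), 4 in both GFP controls and no Piezo1 knockout (15.4% against 10.6%), 0 in both knockouts and no control (0% against 1.57%), and 16 in other patterns (61.5% in both). These shares are near the background and were not tested, with 2 lists a group. GFP control 2, the longest list, held 22 of the 26 regions, and the other lists held 10 to 13. At least 1 region lay near 9 of the 10 genes (90%, against 78.6% of the tested genes matched to RefSeq), and 5 had one present in all 4 lists (50%, against 48.6%).

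The promoters differed in how they appeared in these lists. To show them, the 250 bases before the start site are printed 5′ to 3′ for 4 genes, from RefSeq (GRCm38.p6, the mm10 build): Hey2, Jag2 and Notch3 because their transcripts fell, and Notch2 because its start site lay in a peak in every library. Hes1, Hey1 and Heyl are named only. The Jag2 window precedes the start site of its promoter entry but lies inside the annotated gene body, chr12:112907803-112929812. Capitals mark TGGGAA or its reverse complement TTCCCA, the core letters that RBPJ recognises.
Hey2, chr10:30842784-30843033, minus strand: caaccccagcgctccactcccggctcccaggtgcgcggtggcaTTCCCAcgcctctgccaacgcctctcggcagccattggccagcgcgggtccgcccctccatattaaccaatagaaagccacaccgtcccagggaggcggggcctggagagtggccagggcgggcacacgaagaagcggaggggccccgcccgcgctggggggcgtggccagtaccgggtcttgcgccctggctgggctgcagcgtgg
Jag2, chr12:112929496-112929745, minus strand: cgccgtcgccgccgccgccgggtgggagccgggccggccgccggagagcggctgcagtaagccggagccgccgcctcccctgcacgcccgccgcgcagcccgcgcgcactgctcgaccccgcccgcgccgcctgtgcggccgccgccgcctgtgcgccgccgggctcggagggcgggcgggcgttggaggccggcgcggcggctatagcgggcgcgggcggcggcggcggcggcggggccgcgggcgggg
Notch3, chr17:32166891-32167140, minus strand: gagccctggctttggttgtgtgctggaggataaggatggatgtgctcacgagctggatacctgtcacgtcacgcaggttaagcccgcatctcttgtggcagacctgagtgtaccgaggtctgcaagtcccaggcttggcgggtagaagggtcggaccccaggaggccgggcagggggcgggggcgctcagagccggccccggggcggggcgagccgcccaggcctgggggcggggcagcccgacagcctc
Notch2, chr3:98013288-98013537, plus strand: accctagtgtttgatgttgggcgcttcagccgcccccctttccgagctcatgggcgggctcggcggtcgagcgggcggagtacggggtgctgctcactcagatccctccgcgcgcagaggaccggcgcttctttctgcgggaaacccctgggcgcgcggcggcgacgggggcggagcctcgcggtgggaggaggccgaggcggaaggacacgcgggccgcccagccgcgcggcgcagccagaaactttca
The RBPJ core was found in 1 of 8 windows over the 7 genes with an entry, that of Hey2, and in 21.6% of 32851 RefSeq windows of the same length. The Hey2 match lies 207 to 202 bases before the start and extends to the longer form GTGGGAA, which overlaps it and occurs in 5.42% of windows. The E-box CACGTG was in 0 of the 8 windows (6.02% of all), and CACNAG, the N-box, was in 3, of Notch1, Notch2 and Notch3 (36.7% of all). Both strands were searched, and a match is a run of letters, not a measured binding site.

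At Hey2 a single region, chr10:30842483-30843268, covered the start site in GFP control 2 and both knockouts and was absent from GFP control 1. A peak covered the RBPJ letters in GFP control 2 (the authors' fold enrichment over local background 6.25) and in knockout 1 (3.79), but the knockout 2 peak stopped short of them. The Hey2 start site was thus in a peak in 3 of the 4 lists, beside a transcript level of 0.393 ± 0.0537 CPM in the static cells of the RNA-seq set (SD, n = 3). Notch2 had a region over its start site, chr3:98013193-98014093, in all 4 lists, with fold enrichments of 5.45, 6.64, 5.81 and 5.35 in GFP controls 1 and 2 and knockouts 1 and 2. The printed Notch2 window lies within the merged region, but the peaks of GFP control 1 and knockout 1 begin at positions 98013523 and 98013477 and cover only the end of the window next to the start site. A further region 43.4 kb inside Notch2, chr3:98056507-98057461, was also in all 4 lists, at percentiles 92.9, 70.6, 67.0 and 10.5 of fold enrichment in those lists. One at 49.8 kb, chr3:98063212-98063510, was in both controls and neither knockout.

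Jag2 was the gene with no region within 5 kb in any list, and the printed window, with 87.2% G and C, held none. The Notch3 window held none either, and a region 5.7 kb inside the gene was in GFP control 2 alone. The Notch3 region shared by all lists, chr17:32117171-32117825, lay 2995 bases beyond the gene's 3′ end, overlapping the predicted gene Gm38585, with fold enrichments of 7.26 and 7.83 in the GFP controls and 4.97 and 4.0 in the knockouts. Those are percentiles 91.8, 89.4, 40.1 and 11.5 of their own lists, and ranks in lists of different length do not measure a change.

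Jag1 had 1 region 1.9 kb inside the gene, chr2:137114302-137114910, in all 4 lists and 2 just upstream of its start site, chr2:137116746-137117056 and chr2:137117143-137117487, in both controls and neither knockout. The fold enrichments of these upstream regions were 3.75 and 3.22 in GFP control 1, at percentiles 5.65 and 0.570 of that list, and 4.42 and 3.91 in GFP control 2, at percentiles 23.8 and 9.58. The depth of these libraries is unknown, and its part in which regions are listed was not tested.

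At Hes1, a region on the lower-coordinate side of the gene, chr16:30063861-30064586, was in all 4 lists and one over the gene's lower end, chr16:30064929-30065465, in 3 (not GFP control 1), at percentile 13.1 of fold enrichment or lower in every list. The other 3 Hes1 regions, 2036 to 2811 bases beyond the gene body, were each in 1 GFP control. Notch1 had 5 regions, of which 1, 3.8 kb before its start site, was in all 4 lists, and 1 near its 3′ end, overlapping 0610009E02Rik, was in both controls alone. Dll1 had 2 regions, 1162 and 1513 bases beyond its 3′ end, each in 1 GFP control. Hey1 had 1 region in GFP control 2 and Heyl 1 in knockout 2.

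**Figure D5:**
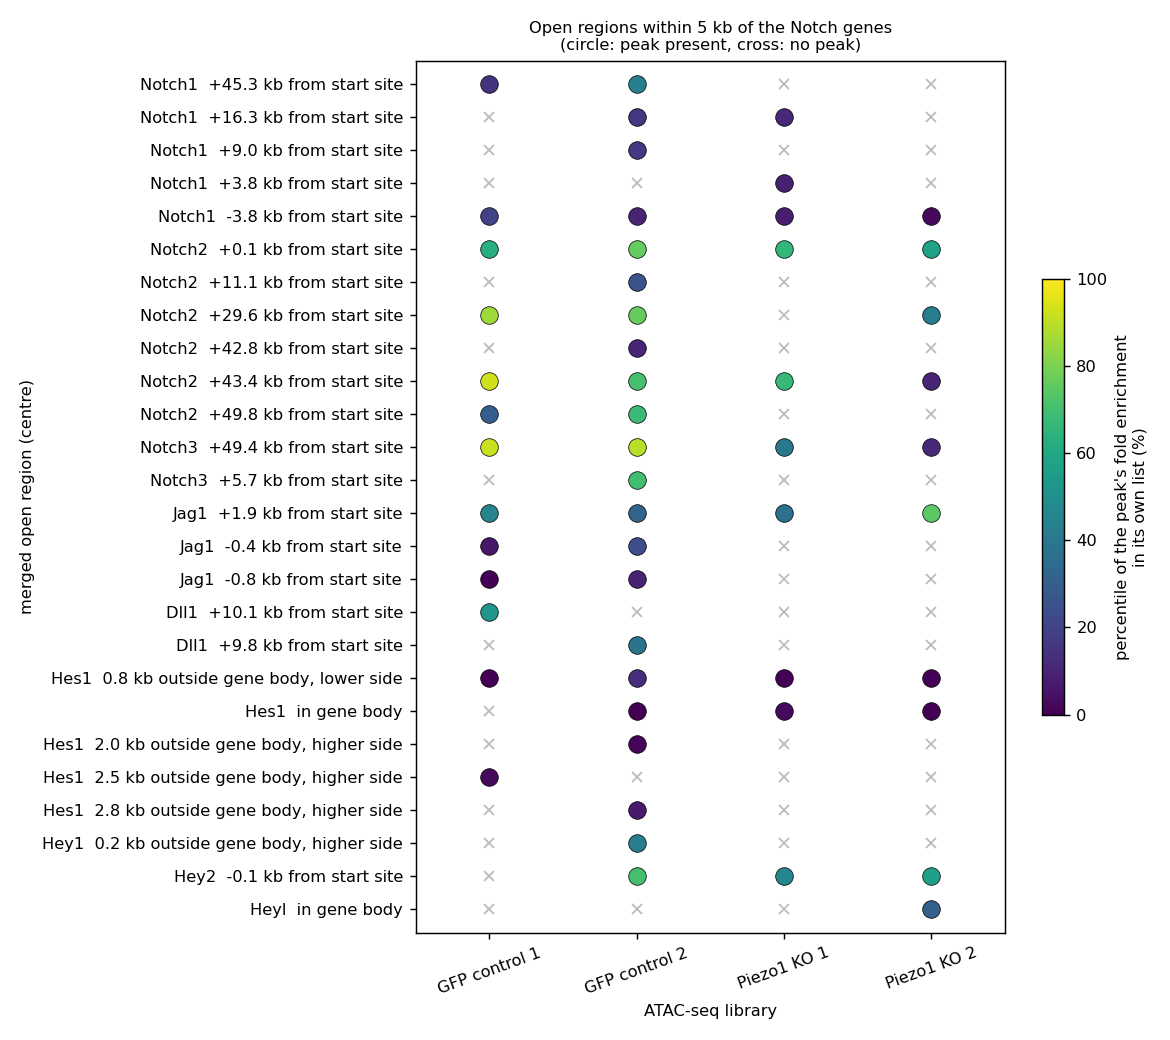
The 26 merged regions within 5 kb of the Notch genes (rows, labelled by gene and distance in kb of the centre from the start site, or from the gene body where no start site is in the table) in the 4 ATAC-seq lists (columns). Circles mark a peak, coloured by the percentile of its fold enrichment within its own list, and crosses mark no peak; GFP control 2 is filled in 22 of 26 rows and Jag2 has no row.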

How the data were processed

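The authors deposited read counts per gene symbol for 6 RNA-seq libraries and 1 peak list for each of 4 ATAC-seq libraries. Per the submitters' processing notes, RNA-seq used Trim Galore 0.6.5, STAR, HTSeq and DESeq2, and ATAC-seq used Trim Galore 0.6.5, Bowtie2 2.4.2 and MACS2, all with mm10. For annotation, strand setting, duplicate handling and peak threshold, nothing is given in the sources used here. Per the labels, cDNA was amplified with a single-cell full-length kit, so reads need not be independent molecules and intervals cover counting error only. The peak lists as deposited give a score, a fold enrichment (a ratio to local background), a −log10 p-value and a −log10 q-value. These are the authors' values and were used only within a list.

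Counts were tested with edgeR 4.0.16 in R 4.3.3 (glmQLFit and glmQLFTest, two-sided, TMM scaling, filterByExpr with a minimum count of 10), and checked on simulated data. In that check edgeR called 16.4% of simulated log2 changes of 0.5, 76.1% of 1 and 90.9% of 2, and 7.58% of calls were false. The check changed only 67, 67 and 66 of 15087 genes at these sizes, against 13.3% of genes called in the data. Its rates need not hold for the data. A gene that was not called may still differ by a log2 change of 0.5, and some changes of 1 or 2 were also missed. SE was taken as |log2 fold change| over √F. Alternatives used DESeq2 1.42.0, limma 3.58.1 voom, other scalings and filters, a replicate block and each library left out. Peaks were merged with bedtools 2.31.1 at 1 bp of overlap. All 10 genes matched RefSeq by symbol (GRCm38.p6), and 7 had an entry in its promoter table. The genes and pathway lists were chosen with earlier results of these data known. Named by a set rule are all 10 genes, every called gene of the other pathway list with Notch4, Dll4, Rbpj, Nrarp and Hes5, and the 3 nearest profiles of each called gene. Outside that rule, Adam10, Furin, Neurl1a, Ep300, Crebbp, Tle2 and Tagln are named, called by DESeq2 but not in the main edgeR test. Lfng, called by neither, is named as well. Genes overlapping Notch1, Notch2 and Notch3 in the annotation had at most 28 counts in a library.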

Additional observations from a re-analysis of the deposited data

How the results depend on the processing

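Hes1, Hes6, Jag2 and Hey2 were called lower under each of the 6 other scalings, filters, tests and blocks and with each of the 6 libraries left out. For Jag2 and Hey2, which passed the filter through the static libraries only, this repeats the same low counts and adds no support. Notch3 was called under the same 6 settings (log2 fold change −0.81 to −0.76) and with 3 of the 6 libraries left out. The log2 fold change of Notch1 ranged from −0.070 (without static replicate 3) to 0.34 with 1 library left out, and that of Dll1 turned to −0.043 with static replicate 3 and strain replicate 1 both left out; the cause was not tested. Without the low-count filter 1 of the 10 genes was called higher (Notch2, adjusted p = 0.0179), and with both libraries that stand apart left out also 1 (Notch2, adjusted p = 0.0292).

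Among all tested genes, 911 were called higher and 1134 lower. Counts became 1428 higher and 1574 lower without the filter, and 1557 and 1619 with the replicate block. With both libraries that stand apart left out they were 1512 and 1614. DESeq2 gave 1320 and 1540, library size alone 1169 and 935, and limma-voom 934 and 1147. With 1 library left out 369 to 1085 were higher and 577 to 1244 lower. With library size alone, 55.6% of calls were higher against 44.5% with TMM. Of the other pathway genes, 1 rose and 2 fell; 7 rose with library size alone, 6 with DESeq2, 2 with limma-voom, 8 without the filter and 7 with both libraries left out, and 0 to 5 with 1 library left out. Lower were 4 with DESeq2, 7 without the filter and 5 with both libraries left out, and 1 to 4 with 1 library left out. The replicate numbers were not taken to pair samples, since not every same-number correlation was over 0.1, though the values give a weak hint of it: same-numbered libraries correlated in their deviations at 0.028, 0.21 and 0.094, and 5 of 6 libraries correlated best with their own number. With the replicate block, 7 other pathway genes rose and 7 fell, and the same 4 of the 10 genes were called.

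Of the regions near the Notch genes, 6 were in all 4 lists, and this became 10 within 20 kb, 3 for peaks with −log10 q of at least 5 and 1 where peaks had to cover 50% of a region, while leaving out a list gave 6 to 8. The 4 regions in both controls and no knockout became 1 for peaks with −log10 q of at least 5 and 4 to 12 with a list left out, the 12 without GFP control 1. The 0 regions in both knockouts and no control became 0 to 2 with a list left out. Counts of 17 or fewer per library limit Hey2, Hey1, Heyl and Nrarp, and the ATAC-seq depth is unknown.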
